A study of Mus musculus with 8 samples.

Results

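The dystrophin-glycoprotein complex was examined in fetal mouse hearts through 8 of its genes, *Dmd*, *Utrn*, *Dag1*, *Sgca*, *Sgcb*, *Sgcd*, *Sspn* and *Dtna*, of the 26590 gene symbols in the deposited table. The complex ties the actin cytoskeleton of a muscle cell to the matrix around it. Dystrophin (*Dmd*) binds actin inside the cell and dystroglycan (*Dag1*) at the membrane, and dystroglycan in turn holds laminin outside through a sugar chain on its α part. Sarcoglycans and sarcospan sit beside dystroglycan in the membrane, and dystrobrevin and the syntrophins bind to dystrophin underneath and carry signaling proteins. Loss of dystrophin or of a sarcoglycan leads to muscular dystrophy and cardiomyopathy, and utrophin (*Utrn*) is the close relative of dystrophin that prevails in fetal muscle. The members were found by their gene symbol, and each gene was read from the row (1 transcript per row) whose average over the 2 genotype means was highest.

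Hearts came from 4 *Dio3+/+* and 4 *Dio3-/-* fetuses of the C57BL/6J strain, 1 RNA per mouse, with no treatment named in the labels. *Dio3* encodes the type 3 deiodinase, which clears thyroid hormone, and *Dio3-/-* fetuses lack it in every tissue, not only in the heart, so that other fetal tissues are exposed as well. The allele was made on a 129/SVJ background and then backcrossed. Every title gives E13.5, but *Dio3-/-* hearts 3 and 4 carry E18.5 in their age field, and the Methods name a stage a day later than the titles, so that genotype and a possible age difference cannot be told apart. The question is whether the excess of thyroid hormone in *Dio3-/-* fetuses goes with a different level of these transcripts. Levels are in RPKM, which corrects reads for the length of the transcript and the size of the library, and were deposited per genotype as a mean and a coefficient of variation (CV, SD over mean). Values of single hearts and the depth of each library are not part of the table used here, so each value is given as mean ± SD, whether single hearts overlap between genotypes could not be seen, and no counting interval was calculated. Log2 fold changes compare *Dio3-/-* with *Dio3+/+* hearts on the log2(RPKM + 0.5) scale, where low genes show too small a change, and were tested with limma on the means and CVs. Adjusted *P* values (Benjamini-Hochberg, threshold 0.05) cover the 32703 rows that exceeded 1 RPKM on average in either genotype, which hold 14657 genes. Whether a lower level means fewer cells of a type or less RNA per cell cannot be told apart in whole hearts.

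The stretch around the transcription start is shown for 3 members, because they stand for the 3 patterns found below. *Sgca* passed the test in each of its rows, *Dmd* in only 1 of them and *Sgcd* in none. The sequences are from RefSeq (GRCm38.p6), run from 250 bases before to 50 bases after the start, and were matched by symbol, since the build behind the deposited table is not given in the sources used here. They lie at chr11:94976278-94976577 on the minus strand (*Sgca*), chrX:82948620-82948919 on the plus strand (*Dmd*, the upstream one of 2 starts) and chr11:47379276-47379575 on the minus strand (*Sgcd*). Capitals mark E-boxes (CANNTG), the sites bound by muscle and other basic helix-loop-helix factors.
Sgca: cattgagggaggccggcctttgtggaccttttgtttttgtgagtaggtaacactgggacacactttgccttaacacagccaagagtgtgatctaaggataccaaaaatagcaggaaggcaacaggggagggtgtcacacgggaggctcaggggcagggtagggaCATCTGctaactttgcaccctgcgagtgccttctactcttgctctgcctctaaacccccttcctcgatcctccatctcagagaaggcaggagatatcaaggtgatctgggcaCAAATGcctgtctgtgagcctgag
Dmd: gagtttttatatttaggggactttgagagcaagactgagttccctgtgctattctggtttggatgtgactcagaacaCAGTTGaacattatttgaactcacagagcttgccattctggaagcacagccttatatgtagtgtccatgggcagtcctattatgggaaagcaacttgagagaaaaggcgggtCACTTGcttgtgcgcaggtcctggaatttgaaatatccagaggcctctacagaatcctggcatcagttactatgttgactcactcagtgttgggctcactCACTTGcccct
Sgcd: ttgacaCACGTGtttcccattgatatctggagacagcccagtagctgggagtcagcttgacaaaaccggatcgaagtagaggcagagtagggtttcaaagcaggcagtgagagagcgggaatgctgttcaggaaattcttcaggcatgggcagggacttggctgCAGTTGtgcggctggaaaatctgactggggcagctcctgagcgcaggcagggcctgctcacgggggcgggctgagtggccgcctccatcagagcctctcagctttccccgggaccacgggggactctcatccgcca
RefSeq windows were found for 7 of the 8 members, not for *Dtna*. The *Sgca* and *Sgcd* windows each hold 2 E-boxes and that of *Dmd* holds 3, and 72.3% of all 32851 windows hold at least 1, so a match is common. The half-site of the thyroid hormone receptor, AGGTCA on either strand, is in none of these 3 windows and in 16.3% of all windows. Among the 10 windows of the members it was found once, in that of *Utrn*. A CArG box, the site of serum response factor, is in the *Dmd* window shown, does not overlap its E-boxes, and is in 1.63% of all windows. These matches describe letters only.

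All 8 genes were detected in both genotypes, all 8 passed the filter on low values, and their levels spanned a 21.2-fold range in *Dio3+/+* hearts. *Dag1* was highest and *Dtna* lowest in both genotypes. In *Dio3+/+* hearts the levels fell in the order *Dag1*, *Sspn*, *Utrn*, *Sgcd*, *Dmd*, *Sgcb*, *Sgca* and *Dtna*, and in *Dio3-/-* hearts *Dmd* and *Sgcd* changed places. Of the 7 pairs of neighbors in that order, 5 were further apart than their SDs in each genotype. The exceptions were the neighbors among *Sgcd*, *Dmd* and *Sgcb*, whose ranges of mean ± SD overlapped, so their order is not set by these data.

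**Figure D1:**
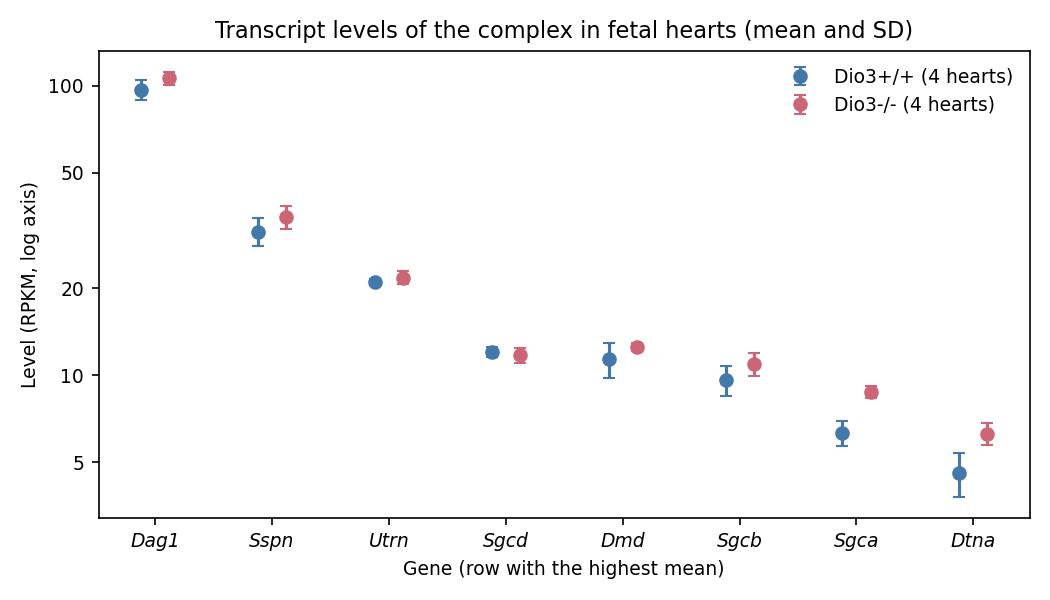
Levels of the 8 genes in RPKM on a log axis, as the mean (point) and SD (bar) of 4 *Dio3+/+* and 4 *Dio3-/-* hearts. *Dag1* is near 100 RPKM in both genotypes, and the bars of the 2 genotypes are separate for *Sgca* and *Dtna* only.

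Between the genotypes 1 of the 8 genes, *Sgca*, passed the test, and it was higher in *Dio3-/-* hearts. Among all tested genes, 2.29% passed in either direction, 1.91% as higher and 0.382% as lower. The log2 fold change was positive for 7 of the 8 genes, against 63.3% of all tested genes. Its median was 0.15 over the 8 genes and 0.04 over all tested genes. The 8 genes were chosen with earlier results of these data known, so these values are a description only. An unadjusted *P* value under 0.05 was found for 2 of the 8 genes, *Sgca* and *Dtna*, and for 19.7% of all tested genes. The spread between hearts was small in both genotypes, with a CV between 0.02 and 0.17 in *Dio3+/+* and between 0.03 and 0.09 in *Dio3-/-* hearts. The latter range is over all 4 *Dio3-/-* hearts, so hearts 3 and 4 could not be set against the others.

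For dystrophin, the link to actin, the highest row did not pass and 1 of 6 rows did. In its highest row *Dmd* had 11.37 ± 1.59 RPKM in *Dio3+/+* hearts and 12.55 ± 0.377 RPKM in *Dio3-/-* hearts (SD, n = 4 each). Its log2 fold change of 0.14 (95% interval −0.06 to 0.33) did not pass (adjusted *P* = 0.452 by limma). All 6 rows of *Dmd* had a positive log2 fold change, from 0.14 to 0.35. The row uc009tri.2 passed, with a step in the mean from 7.23 to 9.33 RPKM (log2 fold change 0.35, adjusted *P* = 0.0495 by limma). The lowest row, uc009trm.1, had a similar log2 fold change of 0.33 and just missed the threshold (adjusted *P* = 0.0595 by limma). The table does not pair these rows with named dystrophin isoforms, and the rows share exons, so they are not independent. A further 6 rows carry the symbol "dystrophin" in place of *Dmd* and are not part of the 8 genes. Of these, 5 were tested, their log2 fold changes ran from 0.24 to 0.36, and none passed (lowest adjusted *P* = 0.0595 by limma, with 3 of the 5 at an unadjusted *P* under 0.05). The study's own list of differentially expressed genes holds both symbols, *Dmd* and "dystrophin", as higher in *Dio3-/-* hearts.

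Utrophin, which binds the same partners as dystrophin, did not pass in any row. *Utrn* had 21.03 ± 0.421 RPKM in *Dio3+/+* hearts and 21.75 ± 1.09 RPKM in *Dio3-/-* hearts. These means differ by less than the SD in *Dio3-/-* hearts. Its log2 fold change of 0.05 had a 95% interval from −0.06 to 0.15 (adjusted *P* = 0.648 by limma). Of its 9 rows, 8 had a positive log2 fold change and the lowest row had −0.13. *Utrn* was above *Dmd* in both genotypes. The ratio of the *Dmd* to the *Utrn* level was 0.541 ± 0.0765 in *Dio3+/+* and 0.577 ± 0.0336 in *Dio3-/-* hearts (error propagated from both SDs as if the genes varied independently). The ranges of ratio ± error overlapped, and the difference was not tested.

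Dystroglycan, the receptor for laminin, was the most abundant member. *Dag1* had 97.12 ± 7.77 RPKM in *Dio3+/+* hearts and 106.35 ± 5.32 RPKM in *Dio3-/-* hearts. This difference of 0.13 on the log2 scale (95% interval −0.01 to 0.28) did not pass (adjusted *P* = 0.319 by limma). The 4 rows of *Dag1* were nearly alike, all with a log2 fold change of 0.13.

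Of the sarcoglycans, the membrane proteins that brace dystroglycan, only α-sarcoglycan passed. *Sgca* had 6.31 ± 0.631 RPKM in *Dio3+/+* hearts and 8.78 ± 0.439 RPKM in *Dio3-/-* hearts, a 1.39-fold higher mean. Its means lay further apart than the 2 SDs added together. The log2 fold change was 0.45 (SE 0.07, 95% interval 0.28 to 0.61, adjusted *P* = 0.0196 by limma), higher than in 98.6% of the tested genes. The second row of *Sgca* went the same way, from a mean of 5.68 to 8.07 RPKM (log2 fold change 0.47, adjusted *P* = 0.0203 by limma). The test for unequal variances named in the Methods takes the spread of each row alone. Recomputed here from the rounded means and CVs, that test did not call *Sgca* after adjustment (adjusted *P* = 0.139). The study's own list of differentially expressed genes does hold *Sgca*, as higher in *Dio3-/-* hearts.

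β-sarcoglycan had the values 9.63 ± 1.16 RPKM in *Dio3+/+* hearts and 10.95 ± 0.986 RPKM in *Dio3-/-* hearts. For *Sgcb* the log2 fold change was 0.18 (95% interval −0.03 to 0.38, adjusted *P* = 0.341 by limma), and its single row leaves no other to check. δ-sarcoglycan was the only member with a lower mean in *Dio3-/-* hearts, with 12.08 ± 0.483 RPKM in *Dio3+/+* hearts and 11.71 ± 0.703 RPKM in *Dio3-/-* hearts. For *Sgcd* it was −0.04 (95% interval −0.17 to 0.08, adjusted *P* = 0.738 by limma), and its second row had 1.08 RPKM in both genotypes. The intervals of *Sgca* and *Sgcd* do not overlap. The level of *Sgca* relative to *Sgcd* was 0.522 ± 0.0563 in *Dio3+/+* and 0.750 ± 0.0586 in *Dio3-/-* hearts, a step larger than the sum of the propagated errors. Relative to *Sgcb* it was 0.655 ± 0.102 in *Dio3+/+* and 0.802 ± 0.0826 in *Dio3-/-* hearts, and these ranges overlapped. Differences between these genes were not tested, because how the genes vary together in single hearts is unknown from these summaries.

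ε-sarcoglycan, which was not among the 8 genes, did not pass either. *Sgce*, an ε form that can take the place of the α form, was above *Sgca*, *Sgcb* and *Sgcd* with means of 19.32 and 19.89 RPKM (log2 fold change 0.04, adjusted *P* = 0.746 by limma). *Sgcz*, for ζ-sarcoglycan, was at 0.03 RPKM in both genotypes. Of the summed level of *Sgca*, *Sgcb*, *Sgcd* and *Sgce*, *Sgca* made up 13.3% in *Dio3+/+* and 17.1% in *Dio3-/-* hearts, and *Sgce* 40.8% and 38.7%.

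**Figure D2:**
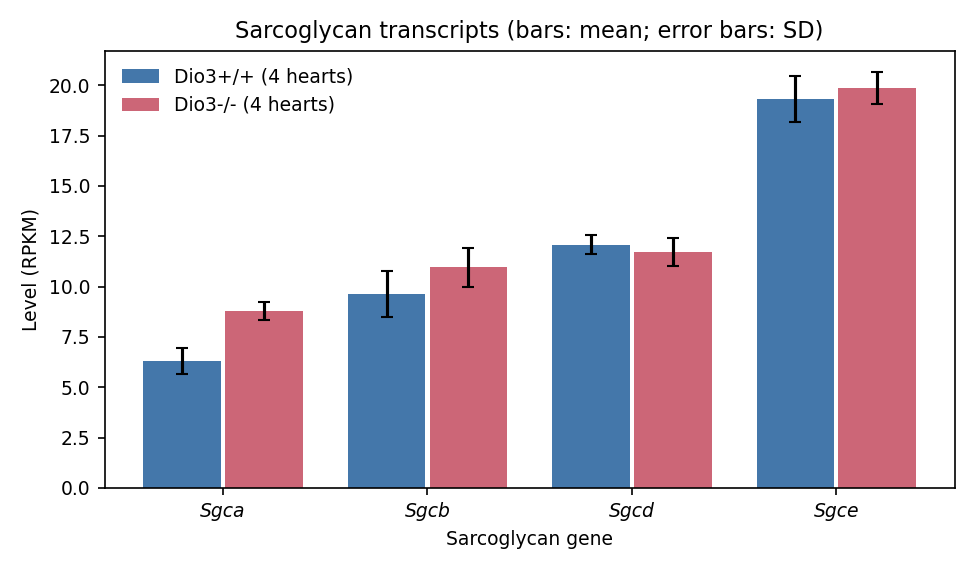
Sarcoglycan transcripts in RPKM as the mean (bar) and SD (error bar) of 4 hearts per genotype, on an axis that starts at 0. *Sgca* is the gene whose error bars are apart, with means of 6.31 and 8.78 RPKM, and *Sgce* is highest in both genotypes.

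Sarcospan, a membrane protein with several spans that binds the sarcoglycans, was second in level. *Sspn* had 31.39 ± 3.45 RPKM in *Dio3+/+* hearts and 35.31 ± 3.18 RPKM in *Dio3-/-* hearts. At 0.17 (95% interval −0.03 to 0.36), its log2 fold change did not pass (adjusted *P* = 0.348 by limma). Its single row had means that differed by less than the sum of both SDs.

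α-dystrobrevin, a relative of dystrophin inside the cell, had the second-highest log2 fold change of the 8 genes and did not pass in its highest row. *Dtna* had 4.59 ± 0.780 RPKM in *Dio3+/+* hearts and 6.29 ± 0.566 RPKM in *Dio3-/-* hearts, or 1.37 times as much. The log2 fold change was 0.42 (SE 0.11, 95% interval 0.17 to 0.66, adjusted *P* = 0.0817 by limma), and the CV of 0.17 in *Dio3+/+* hearts was the largest of the 8 genes. The next 3 rows had similar log2 fold changes, and 2 of them passed. The row uc008efv.1 went from a mean of 2.97 to 4.36 RPKM (log2 fold change 0.49, adjusted *P* = 0.0373 by limma), and uc008efs.1 from 2.94 to 4.29 RPKM (0.48, adjusted *P* = 0.0487 by limma). The 5 lowest tested rows had smaller values, the lowest being 0.19, and none of them passed. All 10 tested rows of *Dtna* had an unadjusted *P* value under 0.05 by limma, as had 19.7% of all tested genes. The rows share exons, so they are not independent, and the table does not pair them with named isoforms. An 11th row, at 1.00 RPKM in *Dio3+/+* hearts, was below the filter. *Dtna* is in the study's own list of differentially expressed genes, as higher in *Dio3-/-* hearts.

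Over all 36 rows of the 8 genes, 35 were tested, 5 passed and all 5 were higher in *Dio3-/-* hearts (1 row of *Dmd* and 2 rows each of *Sgca* and *Dtna*). Among all tested rows 2.15% passed, 1.88% as higher and 0.266% as lower. Counted by any row that passed, a rule added after the data were seen, 3 of the 8 genes had a call (*Sgca*, *Dmd* and *Dtna*), against 2.59% of all tested genes in either direction and 2.16% as higher. Genes with many rows, such as *Dtna* and *Dmd*, have more chances to pass by this rule. After subtracting the median log2 fold change of the tested rows (0.04), only the 2 rows of *Sgca* were left. The same 2 were left without the expression filter and when each CV was raised by its largest rounding error (0.005).

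**Figure D3:**
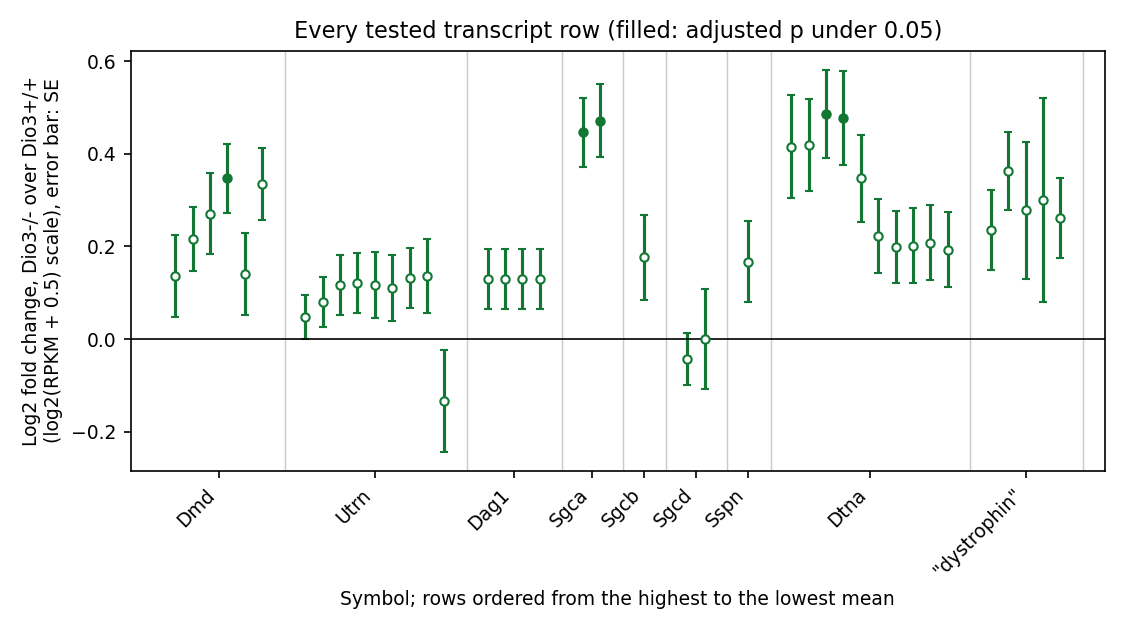
Log2 fold change (log2(RPKM + 0.5) scale) with its SE for every tested row of the 8 genes and of the symbol "dystrophin", ordered within a symbol from the highest to the lowest mean, with filled points for an adjusted *P* value under 0.05. Both rows of *Sgca* are filled, as are 2 of 10 rows of *Dtna* and 1 of 6 rows of *Dmd*, and the rows of *Utrn* lie between −0.13 and 0.14.

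The other subunits and partners of the complex gave 1 further change. Of 13 listed genes, 8 were above the filter, 1 rose, none fell and 7 did not pass. Among all tested genes 2.29% passed, 1.91% as higher. The median log2 fold change of the 8 was 0.17, against 0.04 over all tested genes. *Sntb1*, for the adaptor β1-syntrophin that binds dystrophin and dystrobrevin, rose from 7.47 ± 0.523 RPKM to 11.4 ± 1.25 RPKM (log2 fold change 0.58, SE 0.08, adjusted *P* = 0.00888 by limma). The unequal-variance test of the Methods, recomputed here, did not call *Sntb1* (adjusted *P* = 0.107), and the symbol is not in the study's own list. *Sntb2*, for β2-syntrophin, had means of 6.07 and 6.81 RPKM (log2 fold change 0.15, adjusted *P* = 0.244 by limma).

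*Dtnb*, for β-dystrobrevin, had means of 6.66 and 7.30 RPKM (0.12, adjusted *P* = 0.442 by limma). *Cav3*, for the muscle caveolin, had means of 20.64 and 24.36 RPKM (0.23, adjusted *P* = 0.204 by limma), and *Dysf*, for the membrane repair protein dysferlin, had 7.54 and 8.66 RPKM (0.19, adjusted *P* = 0.197 by limma). *Dysf* did not pass here but is in the study's own list of differentially expressed genes, as higher. The 5 genes below the filter were *Sgcz*, *Sntg1*, *Sntg2*, *Drp2* and *Nos1*, the neuronal nitric oxide synthase that syntrophin holds at the membrane of skeletal muscle. *Nos1* was at 0.04 RPKM in both genotypes.

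**Figure D4:**
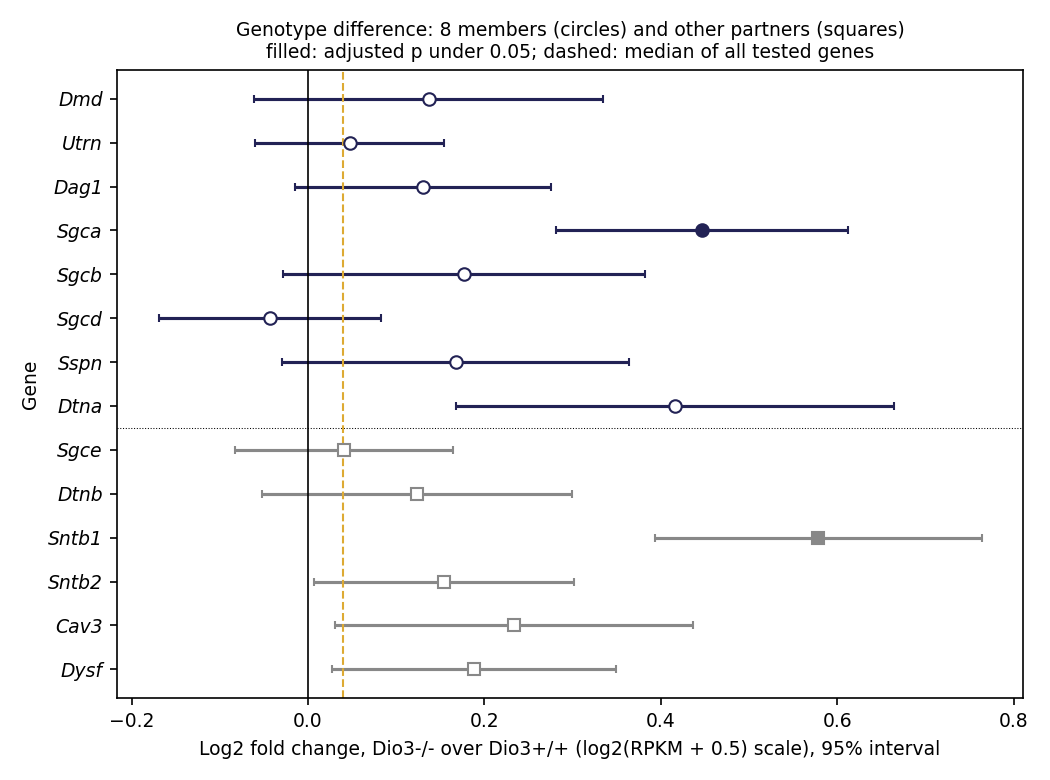
Log2 fold change (log2(RPKM + 0.5) scale) with its 95% interval for the 8 genes (circles) and 6 of the tested partners (squares), with filled symbols for an adjusted *P* value under 0.05 and a dashed line at the median of all tested genes (0.04). *Sgca* (0.45) and *Sntb1* (0.58) are filled, and the interval of *Dtna* lies above 0 although it missed the adjusted threshold.

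Outside the cell, 2 laminin chains rose. Of 12 listed matrix partners of dystroglycan, 10 were above the filter, 2 rose, none fell and 8 did not pass, with a median log2 fold change of 0.12. The share over all tested genes was 2.29% in either direction and 1.91% as higher. *Lama2*, the α2 chain of the laminin that dystroglycan binds in muscle, went from 6.49 ± 0.260 RPKM to 12.63 ± 1.14 RPKM (log2 fold change 0.91, SE 0.07, adjusted *P* = 0.000291 by limma). *Lamb2*, for the β2 chain, went from 17.58 ± 0.352 RPKM to 23.54 ± 1.18 RPKM (0.41, SE 0.05, adjusted *P* = 0.00424 by limma). For both, the means were apart by more than the sum of the SDs. The unequal-variance test of the Methods, recomputed here from the rounded summaries, called neither (adjusted *P* = 0.060 for *Lama2* and 0.0784 for *Lamb2*). Both are in the study's own list of differentially expressed genes, as higher in *Dio3-/-* hearts.

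The genes listed for glycosylation, which include enzymes that build the sugar chain on α-dystroglycan and others with wider roles, gave no calls. All 19 were above the filter and 0 passed with limma, while 2.29% of all tested genes passed. An unadjusted *P* value under 0.05 by limma was found for 2 of the 19, against 19.7% of all tested genes. With the unequal-variance test of the Methods, recomputed here, 0 passed. The median log2 fold change was 0.05, against 0.04 over all tested genes. The lowest adjusted *P* values were those of *Pomgnt2*, listed as C85492, with 4.60 and 3.75 RPKM (log2 fold change −0.26, adjusted *P* = 0.20 by limma), and of *Pomgnt1*, with 17.92 and 19.53 RPKM (0.12, adjusted *P* = 0.204 by limma). Both encode transferases that extend the O-mannose of dystroglycan.

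Other proteins of the costamere, the rib-like site where the complex and the integrins anchor the contractile apparatus, gave 1 call. Of 19 listed genes, 18 were tested, 1 rose, none fell and 17 did not pass, with a median log2 fold change of 0.12. Over all tested genes the share was 2.29% in either direction and 1.91% as higher. *Ank3*, for the membrane adaptor ankyrin-G, rose from a mean of 21.8 to 29.52 RPKM (log2 fold change 0.43, SE 0.05, adjusted *P* = 0.00627 by limma). The unequal-variance test of the Methods, recomputed here from the rounded summaries, did not call *Ank3* (adjusted *P* = 0.0697). It is in the study's own list of differentially expressed genes, as higher in *Dio3-/-* hearts.

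**Figure D5:**
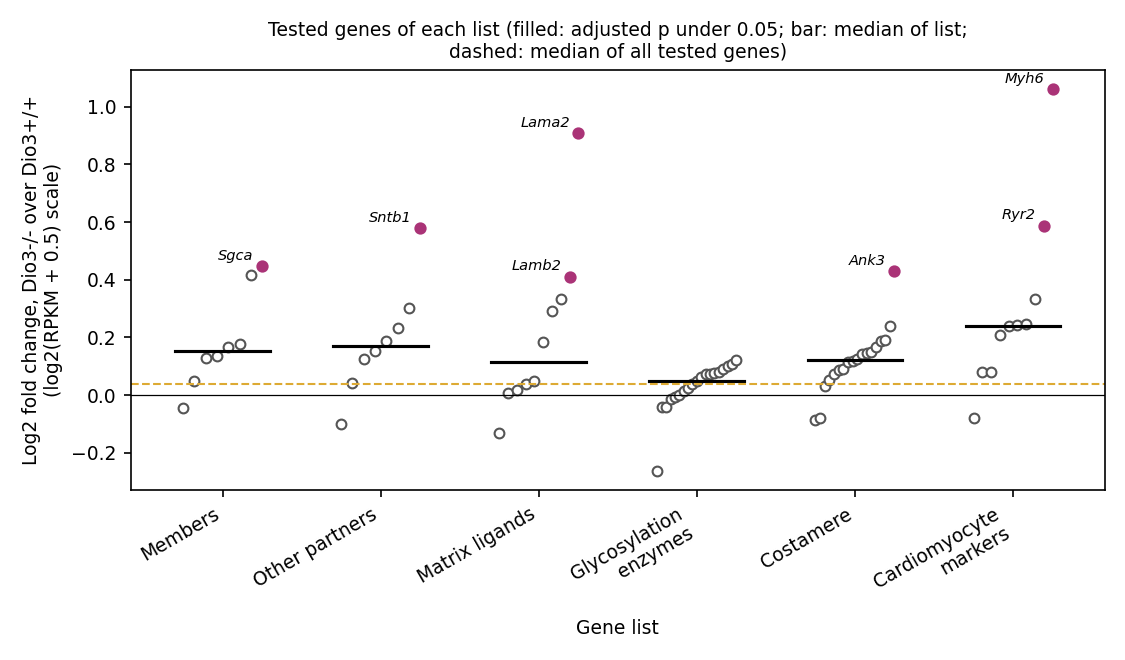
Log2 fold change (log2(RPKM + 0.5) scale) of each tested gene in the 8 genes, 4 lists of related genes and the cardiomyocyte markers, with the median of each list as a bar and that of all tested genes as a dashed line. Filled points have an adjusted *P* value under 0.05 and carry their names, and all of them lie above 0.

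Genotype and tissue were checked with other transcripts. *Dio3* itself was at 0.35 RPKM in *Dio3+/+* hearts and 0.13 RPKM in *Dio3-/-* hearts, below the filter, so it could not check the labels. *Klf9*, a transcription factor gene induced by thyroid hormone, went from a mean of 1.86 to 8.48 RPKM. Of the 10 cardiomyocyte markers all were present, 2 rose by limma (*Myh6* and *Ryr2*) and none fell, while 1.91% of all tested genes rose. These are counts over the listed markers only. Their median log2 fold change was 0.24, above that of the 8 complex genes, and their summed level went from 13309 to 15756 RPKM. The part of these markers in the result for *Sgca* was not tested.

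Markers of other tissues also differed in level. The 10 skeletal muscle markers, from a tissue that also expresses the complex, summed to 86.61 RPKM in *Dio3+/+* hearts and 94.99 RPKM in *Dio3-/-* hearts, with none of 6 tested genes passing by limma and 4 at an unadjusted *P* value under 0.05. Most of that sum was *Ckm*, which heart muscle also expresses, at 50.4 and 87.79 RPKM. The other 9 markers all had a lower mean in *Dio3-/-* hearts, and they summed to 36.2 RPKM in *Dio3+/+* hearts but 7.20 RPKM in *Dio3-/-* hearts. Among them, *Myh3* (embryonic myosin) averaged 14.23 RPKM (CV 1.61) and 0.72 RPKM (CV 0.99), *Myog* 9.78 RPKM (CV 1.56) and 1.17 RPKM (CV 0.86), and *Myod1* 4.42 RPKM (CV 1.62) and 0.46 RPKM (CV 1.18), in the same order of genotypes. The summed level of 7 red cell genes went from 37288 to 12753 RPKM (1 fell, *Hbb-bh1*), and that of 8 liver genes from 22.9 to 123 RPKM (none passed by limma, all 8 at an unadjusted *P* value under 0.05). Most of the red cell sum was *Hbb-y*, an embryonic globin gene, with means of 29101 and 9909 RPKM. Whether its difference goes with the possible age difference was not tested. No gene passed among 7 endothelial, 6 epicardial, 7 mesenchymal and 5 smooth muscle markers tested. Among macrophage markers 1 of 6 rose (*Lyz2*), and among Schwann cell and neuron markers 1 of 3 (*Tubb3*). Of all tested genes 2.29% passed by limma, and 19.7% had an unadjusted *P* value under 0.05. No marker was at 0 in both genotypes. The part of these tissues in the results for the complex was not tested.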

How the data were processed

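Total RNA of whole fetal hearts was depleted of ribosomal RNA and sequenced by the authors with single-end reads. Alignment was with Novoalign (version 2.08, per the labels), and coverage by uniquely mapping reads was normalized for library size, with the smallest library as the reference. The build is not given in the sources used here. The authors deposited genotype means, read here as RPKM because the Methods filter in that unit, and coefficients of variation, a ratio of SD to mean, both rounded to 2 decimals. Their *q* values and fold changes were not used in any test. Their list of differentially expressed genes serves only to say which of the named genes it holds. Besides those given above, these are *Klf9*, *Myh6*, *Ryr2* and *Tubb3*, all as higher in *Dio3-/-* hearts. Depth per library is not in the table.

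From these summaries, log2(mean + 0.5) was compared between genotypes, with an SD by the delta method, 6 residual degrees of freedom and 3.52 prior ones from limma (version 3.58.1, under R 4.3.3), whose moderated variance followed a trend on the mean. The log of a mean stands in for the mean of logs. The test was tested on simulated data. Rows needed over 1 RPKM on average in either genotype, and a gene was read from its highest row. All 163 listed genes were found by symbol or older symbol. The members and the lists of related and marker genes were chosen with earlier results of these data known. Named are the members, tested partners, genes of each list that passed (at most 5, otherwise the 2 lowest adjusted *P* values), checks, and markers that passed. *Myog*, *Myod1*, *Myh3*, *Ckm*, *Nos1* and *Sgcz* were named after their values were seen. Some genes that meet this rule are not reported here. The alternatives were pseudocounts of 0.1 and 1, no filter, a mean above 5 RPKM, no trend, 1 row per gene, Welch's test, centring, and raised coefficients of variation. Summaries and figures used Python (version 3.11.15).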

Additional observations from a re-analysis of the deposited data

How the results depend on the processing

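*Sgca* was the only one of the 8 genes to pass in 8 of 9 alternatives, with a log2 fold change from 0.41 to 0.47 and an adjusted *P* value from 0.0151 to 0.139 by limma or Welch's test, and *Sntb1*, *Lama2*, *Lamb2* and *Ank3* passed in the same 8. None of the members, tested partners, named genes of the related lists, *Klf9* or *Myh6* changed direction. The other checks and markers were not followed across the alternatives. Welch's test was recomputed from the rounded means and CVs, so its calls can differ from those of the study. With it, 0 members (2 at an unadjusted *P* value under 0.05), 0 related genes, 0 member rows and 27 of all genes passed, against 1, 5, 5 and 336 with limma. The number of all genes was 197 without a filter, 180 with centring (71.7% higher, against 83.3%) and 187 with raised coefficients of variation. The member rows that passed were 2 in each of these 3 and 3 with a mean above 5 RPKM. With no trend 4 member rows passed. There the *Dmd* row that passed was uc009trm.1 in place of uc009tri.2, and uc008efs.1 of *Dtna* did not pass. Counting a gene when any of its rows passes, an alternative added after the data were seen, gave 3 members, against 2.59% of all tested genes by that rule. With the second-highest rows, the level of *Sgca* relative to *Dag1* in *Dio3-/-* hearts was 0.0759 in place of 0.0826, that of *Sgcd* relative to *Dag1* was 0.0111 in *Dio3+/+* and 0.0102 in *Dio3-/-* hearts in place of 0.124 and 0.110, and that of *Sgca* relative to *Sgcd* was 5.26 and 7.47, since the second row of *Sgcd* is much lower. No paired analysis was possible because the columns hold genotype means and carry no replicate numbers. For the same reason leaving out single hearts, or *Dio3-/-* hearts 3 and 4, was not run.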
